A study of Homo sapiens with 6 samples.

Results

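HepG2, a human liver cancer cell line that is widely used as a stand-in for hepatocytes, was profiled by RNA-seq of poly(A) RNA, and the 2 libraries labelled HepG2-Scr (Scr) among the 6 of the series are described here. These are the scramble control cells, which were transfected with the Cas9 and GFP plasmid without a guide, sorted as single cells and grown as colonies, and whose miR-23a and miR-27a genes were left unedited. The labels give their genotype as WT and call all 6 samples triple-negative liver cancer cells, and the series text speaks of cells sorted by the activity of the miRNAs. What these descriptions mean for the Scr cells is not given in the sources used here. The other 4 libraries are 2 of miR-23a KO and 2 of miR-27a KO cells of the same line. All cells were grown without any added drug in medium with 10% serum, and the KO cells were selected colonies too. Whether the 2 libraries of a group came from 1 colony or 1 culture is not stated, for Scr or for either KO. The spread between them may thus be technical. Both Scr libraries were taken by their labels alone, and no measured value chose them. They held 14891239 and 14405250 counts.

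The hepatocyte is the cell that secretes most plasma proteins, packages lipids into lipoproteins, makes bile acids, detoxifies ammonia and drugs, and buffers blood glucose. Its program is held by a small circle of transcription factors, among them HNF4A, CEBPA and the FOXA factors, and it changes at birth, when the fetal genes are shut and many metabolic enzymes are opened. HepG2 cells come from a liver tumour with features of the embryonic liver, so the question put to these libraries was which parts of that program they expressed. The miRNAs left intact in Scr cells lie on the minus strand of chromosome 19 and share part of their seed, the stretch that pairs with targets (bases 2 to 8, in capitals). They are shown because they are what sets Scr apart from the KO cells, and mature miRNAs were not measured by these libraries.
miR-23a-3p, chr19:13836595-13836615: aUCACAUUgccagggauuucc
miR-27a-3p, chr19:13836447-13836467: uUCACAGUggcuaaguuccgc

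Levels are given in CPM, that is, a gene's count scaled to a library total of 1000000 counts. Of the 20026 genes of the table, 12657 (63.2%) reached 1 CPM in both Scr libraries, 8364 reached 10 CPM, 2038 reached 100 CPM and 73 reached 1000 CPM. There were 1789 genes with 0 counts in both libraries (8.93%), which allows a level of up to 0.102 CPM over the pair (3 counts, counting error only). Because every gene of the table had a count in at least 1 of the 6 libraries, these shares are not shares of the genome. Protein-coding genes held 98.1% of the counts in each library, and 752 of 3007 genes annotated as lncRNA reached 1 CPM. The 10 most abundant genes held 9.02% of the counts of replicate 1 and 8.99% of those of replicate 2, and 663 and 735 genes were needed to reach 50% of the counts.

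*FTL*, the light chain of the iron store ferritin, was the most abundant gene, with 15881 CPM in replicate 1 and 16728 CPM in replicate 2. *ALB*, which encodes serum albumin, came next at 10065 and 15528 CPM, so its replicates stood further apart than those of *FTL*. The protease inhibitor *SERPINA1* (alpha-1-antitrypsin) was at 10376 and 11328 CPM, the plasma protease trap *A2M* at 6619 and 7572 CPM, and the plasma glycoprotein *AHSG* (fetuin-A) at 5479 and 4220 CPM. Including *FTL*, 5 of the first 10 places thus went to secreted products or iron storage of the hepatocyte, and *FN1*, the matrix and plasma protein fibronectin, followed at 7818 and 5595 CPM. The remaining places went to the elongation factors *EEF1A1* and *EEF2* and to the glycolytic enzymes *GAPDH* and *ENO1*, which most cells express. Of the 100 most abundant genes, 19 belonged to a list of liver functions.

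Dividing by transcript length changed the order. In TPM, where counts are divided by transcript length and scaled to a sum of 1000000, *APOA2*, an apolipoprotein of high-density lipoprotein, rose to the second place behind *FTL*, with 10561 and 13018 TPM against 2606 and 3151 CPM. Also in the first 10 by TPM were the ribosomal protein gene *RPS2* and *PXN-AS1*, an antisense RNA gene. *PXN-AS1* read 3151 and 2679 CPM, while its neighbour *RPLP0*, a ribosomal protein gene, read only 374 and 315 CPM. Whether the counting used strand is not given in the sources used here, so these 2 genes cannot be told apart with certainty.

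Of 380 genes chosen for 15 liver functions, 367 were in the table. Of these, 302 (82.3%) reached 1 CPM in both libraries, against 63.2% of all genes and 72.2% of protein-coding genes. The median of the 367 was 33.0 CPM, against 6.04 CPM over all genes, lncRNA genes included. They held 9.91% and 10.8% of the counts. A further 11 had 0 counts in both libraries. The genes over and under 1 CPM were not spread evenly over the functions, as the plot of list levels shows. The highest shares at or above 1 CPM were in cholesterol synthesis (21 of 21), hepatocyte transcription factors (28 of 30), fatty acid and ketone metabolism (24 of 26) and iron, heme and copper handling (20 of 22). The lowest share was in drug-metabolizing cytochrome P450 enzymes (12 of 22). These lists were compiled with earlier results of these data known, so their shares are a description.

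**Figure D1:**
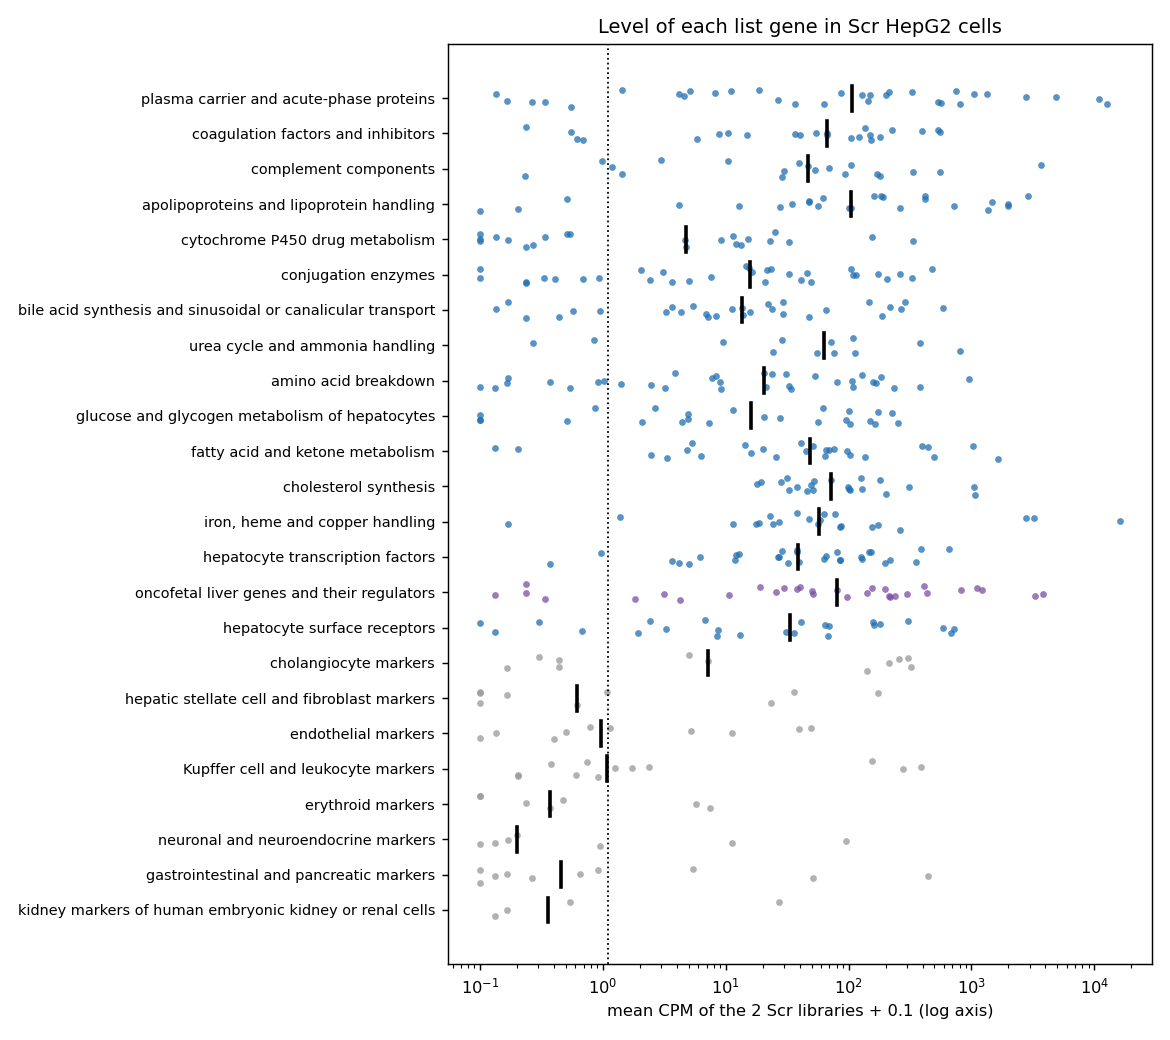
Mean CPM of the 2 Scr libraries plus 0.1 on a log axis, 1 point per gene, for the lists of liver functions (blue), oncofetal genes (purple) and markers of other cells (grey). The black bar is the median of the list and the dotted line marks 1 CPM. The medians of the liver lists run from 4.64 CPM for cytochrome P450 enzymes to 107 CPM for plasma carriers, and those of the other-cell lists from 0.101 to 7.10 CPM.

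Transcription factors that hold the hepatocyte program were nearly all expressed. *HNF4A*, the nuclear receptor at the centre of the circle, was at 329 and 373 CPM, *CEBPA* at 318 and 459 CPM, and the cardiac and hepatic factor *GATA4* at 113 and 138 CPM. The pioneer factors *FOXA2*, *FOXA1* and *FOXA3* were at 97.2 and 74.1, 62.8 and 108, and 56.6 and 73.5 CPM. The liver-enriched homeobox factor *PROX1* was at 28.9 and 47.1 CPM. Lower levels were seen for the sensors of bile acids and foreign compounds. *NR1H4*, the bile acid receptor FXR, was at 7.66 and 17.8 CPM, and *NR1I2*, the xenobiotic receptor PXR, was at 20.4 and 33.8 CPM. The list had 2 members under 1 CPM in a library: *NR1I3*, the xenobiotic receptor CAR, at 0.403 and 0.139 CPM (6 and 2 counts), and the early hepatic factor *ONECUT1* at 0.403 and 1.32 CPM.

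The TATA box, a short sequence that places the start of transcription, is known from the promoters of many strongly tissue-restricted genes. Promoter windows of RefSeq (GRCh38.p14, 250 bases before to 50 after a start) were searched from 50 to 11 bases before the start for the letters TATAAA on the strand of the gene. Of the 269 liver-function genes with a window, 37 (13.8%) held them in at least 1 of their windows, against 445 of 15000 genes of the table (2.97%) and 2.53% of all 35116 windows. Markers of other cell types held them in 6 of 42 genes (14.3%). By level in Scr, they were present in 10 of 67 liver-function genes at or above 100 CPM (14.9%), in 16 of 156 from 1 to 100 CPM (10.3%) and in 11 of 46 under 1 CPM in a library (23.9%). On the opposite strand the same letters were held by 4 of the 269 (1.49%) and 0.917% of all windows. A match describes the letters of the window and was not tested as a binding site.

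The 60 bases before the start are set side by side for 4 expressed genes (*AFP*, *RBP4*, *APOC2* and *CEBPA*) and for 4 that were low or at 0 counts (*CYP3A7*, *AFM*, *CYP3A4* and *CYP2E1*). The letters are in capitals. These 8 were chosen among the genes with a match after their values were seen.
AFP promoter, chr4:73436161-73436220, plus strand: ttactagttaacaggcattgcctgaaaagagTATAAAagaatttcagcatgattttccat
RBP4 promoter, chr10:93601236-93601295, minus strand: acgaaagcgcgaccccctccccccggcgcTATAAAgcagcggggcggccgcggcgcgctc
APOC2 promoter, chr19:44945991-44946050, plus strand: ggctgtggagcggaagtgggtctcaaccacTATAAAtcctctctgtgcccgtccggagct
CEBPA promoter, chr19:33302535-33302594, minus strand: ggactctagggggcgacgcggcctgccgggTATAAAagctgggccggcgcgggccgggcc
CYP3A7 promoter, chr7:99735197-99735256, minus strand: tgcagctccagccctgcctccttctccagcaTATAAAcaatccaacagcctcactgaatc
AFM promoter, chr4:73481685-73481744, plus strand: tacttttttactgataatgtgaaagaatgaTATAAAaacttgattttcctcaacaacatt
CYP3A4 promoter, chr7:99784185-99784244, minus strand: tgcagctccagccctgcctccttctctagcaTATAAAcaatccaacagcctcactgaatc
CYP2E1 promoter, chr10:133527303-133527362, plus strand: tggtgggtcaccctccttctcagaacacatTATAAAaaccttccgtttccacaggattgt
The letters began between 31 and 29 bases before the start in these 8 genes. *AFM*, which lies directly after *AFP* on chromosome 4, held them as *AFP* did, at levels of 0.134 and 0.347 CPM against 2501 and 4021 CPM. The windows of *CYP3A7* and *CYP3A4* differed at 1 of 60 bases.

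Plasma carriers and acute-phase proteins made up the largest sum of any liver list, 35655 and 39866 CPM, and 27 of 32 genes reached 1 CPM. *TF*, the iron carrier transferrin, was at 3204 and 2329 CPM, and *RBP4*, the retinol carrier, was at 693 and 927 CPM. *TTR*, the thyroxine carrier that binds *RBP4*, was lower and uneven, at 61.2 and 196 CPM. *HP*, the hemoglobin scavenger haptoglobin, was at 37.6 and 36.2 CPM. At the low end stood *GC*, the vitamin D binding protein, with 3 and 10 counts (0.201 and 0.694 CPM), although it is an abundant product of the adult liver. Carriers at over 1000 CPM and at under 1 CPM were thus found in the same list.

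Clotting and complement genes were at widely differing levels. *F2*, which encodes prothrombin, was at 582 and 492 CPM, the plasmin inhibitor *SERPINF2* at 515 and 595 CPM, and *SERPINC1* (antithrombin) at 103 and 166 CPM. Of 23 coagulation genes, 19 reached 1 CPM. *PLG*, the precursor of the clot-dissolving enzyme plasmin, had 0 and 4 counts (0.278 CPM in replicate 2). The 3 fibrinogen chains, which are made in equal numbers in the secreted protein, were unequal: *FGA* was at 226 and 221 CPM, *FGG* at 152 and 149 CPM, and *FGB* at 24.6 and 48.8 CPM. Among 19 complement genes 16 reached 1 CPM, led by *C3*, the protein on which all complement pathways meet, at 4570 and 2837 CPM, followed by *C4B* at 592 and 508 CPM. *C4B* and *C4A* are near-identical copies, and the split of reads between them is uncertain.

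Lipoprotein genes were kept with few exceptions, as 22 of 25 reached 1 CPM. *APOE* was at 1764 and 2233 CPM, *APOB*, the backbone of very-low-density lipoprotein, at 1207 and 2746 CPM, *APOH* at 1198 and 1751 CPM, and *APOA1* at 1132 and 1588 CPM. *MTTP*, which loads lipid onto apolipoprotein B, was at 27.7 and 41.2 CPM. *LPA*, which encodes apolipoprotein(a), had 0 counts in both libraries. *APOC4* had 0 and 3 counts although it lies between *APOC1* (191 CPM ± 0.193, SD, n = 2) and *APOC2* (415 CPM ± 51.2, SD, n = 2) on chromosome 19.

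Cholesterol synthesis was the list with every member at or above 1 CPM. *FDFT1*, which commits the pathway to sterols, was at 1085 and 1034 CPM, and *HMGCS1*, which acts early in the pathway, was at 20.3 and 43.0 CPM. Fatty acid synthesis was also high, with *SCD* (stearoyl-CoA desaturase) at 1427 and 1837 CPM and *FASN* (fatty acid synthase) at 1025 and 1036 CPM.

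The urea cycle was uneven along its steps. *CPS1*, which starts the cycle in the mitochondrion, was at 21.3 and 27.4 CPM. *OTC*, the next enzyme, had 1 and 4 counts (0.0672 and 0.278 CPM). *ASS1* and *ASL*, which build and split argininosuccinate, were at 389 and 377 CPM and at 101 and 126 CPM. *ARG1*, the liver arginase that releases urea, was at 0.806 and 0.694 CPM, while the mitochondrial form *ARG2* was at 77.8 and 73.9 CPM. *GLUL*, the glutamine synthetase of the cells around the central vein, was at 8.73 and 10.3 CPM. Both of the enzymes under 1 CPM, *OTC* and *ARG1*, were so in each library.

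Amino acid breakdown was present in 25 of 33 genes. The tyrosine pathway enzyme *HPD* was at 843 and 1086 CPM, *MAT1A*, the liver enzyme that makes S-adenosylmethionine, at 337 and 425 CPM, and *AGXT* at 139 and 118 CPM. *TAT*, the tyrosine aminotransferase that appears around birth, was at 10.1 and 6.46 CPM. *TDO2*, which opens tryptophan breakdown in the adult liver, had 1 count in each library, and *GLYAT*, which conjugates glycine to acyl groups in the mitochondrion, had 0 counts in both.

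Drug-metabolizing enzymes had the lowest share at or above 1 CPM among the 15 liver lists. Of the 22 genes, cytochrome P450 enzymes and their reductase, 12 (54.5%) reached 1 CPM, against 63.2% of all genes and 72.2% of protein-coding genes. *CYP2E1* and *CYP4A11* had 0 counts in both libraries. *CYP3A4*, the main drug-oxidizing enzyme of adult liver, had 2 and 3 counts (0.134 and 0.208 CPM), and *CYP1A2* had 0 and 2. The fetal form *CYP3A7* was at 1.54 and 7.64 CPM. *CYP2B6* was at 29.1 and 16.5 CPM. The highest enzyme of this list was *CYP2W1*, which is known from fetal gut and tumours, at 164 and 145 CPM, and the electron donor of the family, *POR*, was at 355 and 317 CPM. The partner of the enzymes was therefore present at a level far over most of the enzymes themselves. CYP3A genes are close copies of each other, so counts of a few reads may be shared between them.

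Conjugating enzymes were better kept, with 24 of 32 at or above 1 CPM. The sulfotransferase *SULT1A1* was at 489 and 460 CPM, *EPHX1*, the microsomal epoxide hydrolase, at 274 and 377 CPM, *SULT2A1* at 60.8 and 150 CPM and *UGT2B7* at 42.8 and 56.7 CPM. *UGT1A1*, which conjugates bilirubin, was at 5.57 and 23.7 CPM. Its first exon alone separates it from its neighbours in a shared gene, so the split of reads is uncertain. *GSTM1* and *UGT2B17*, which are often deleted from human genomes, had 0 counts in both libraries. *GSTP1*, which hepatocytes lack and most other epithelia express, was at 0.403 and 0.208 CPM.

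Bile acid genes split by position in the pathway. *CYP7A1*, the rate-limiting enzyme of the classical route, had 0 and 2 counts, while *CYP27A1*, which opens the alternative route, was at 268 and 309 CPM. *CYP8B1*, which sets the share of cholic acid, was at 2.62 and 4.51 CPM. The canalicular exporter *ABCC2* was at 223 and 314 CPM. Among the importers of the blood side, the sodium-taurocholate transporter *SLC10A1*, also the entry receptor of hepatitis B virus, was at 0.537 and 0.417 CPM (8 and 6 counts), and *SLCO1B3* had 0 and 1 counts. *FGFR4*, the receptor of the intestinal hormone FGF19, was at 624 and 552 CPM, and *FGF19* itself had 1 and 3 counts. In all, 23 of 29 genes of the list reached 1 CPM.

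Genes that take glucose up and release it were low where the adult liver has its own form. *FBP1*, a key enzyme of gluconeogenesis, was at 0.470 and 0.347 CPM, *PCK1* at 4.70 and 3.96 CPM, and *G6PC*, the glucose-6-phosphatase that lets glucose leave the cell, at 1.81 and 2.15 CPM. *GYS2*, the liver glycogen synthase, was at 0.336 and 1.18 CPM. The liver pyruvate kinase *PKLR* was present at 47.3 and 75.5 CPM.

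To set liver and broadly expressed forms of 1 activity against each other, 20 pairs were compared per transcript length, in TPM, and 18 had both forms in the table. The broad form was higher in both libraries in 12 pairs, the liver form in 4, and the order differed between the libraries in 2. These names are loose for some of the pairs, as *CPT1B* is a muscle form and *CDH1* and *CDH2* are 2 classical cadherins. Among the 12, *TDO2* and *IDO1* had only 2 and 8 counts over the pair. The 12 are a count of pairs chosen with results known, with no test. *PKM* exceeded *PKLR* by 44.7 times in replicate 1 and 23.9 times in replicate 2, and the glucose transporter *SLC2A1* exceeded *SLC2A2* by 56.2 and 21.2 times. *GYS1* exceeded *GYS2*, which had 22 counts over the pair, by 209 and 68.3 times. *ADH5*, at 103 and 110 TPM, was at least 1534 times higher than the ethanol-oxidizing *ADH1B*, which had no count, against the limit of 3 counts over the pair.

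The exceptions ran the other way. *MAT1A* exceeded the proliferation-linked *MAT2A* by 3.59 times in replicate 1 and 6.25 times in replicate 2 (190 and 244 against 52.9 and 39.1 TPM). *PFKL*, the liver phosphofructokinase, exceeded *PFKP* by 7.01 and 10.5 times, and E-cadherin *CDH1* exceeded N-cadherin *CDH2* by 4.82 and 9.40 times. The fatty acid carrier enzyme *CPT1A* was at 29.3 and 33.7 TPM, while its muscle form *CPT1B* had 6 counts over the pair (0 and 0.307 TPM). For the fatty acid binding proteins *FABP1* and *FABP5* the order changed between libraries, at 92.7 and 85.2 TPM against 74.6 and 89.1 TPM.

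**Figure D2:**
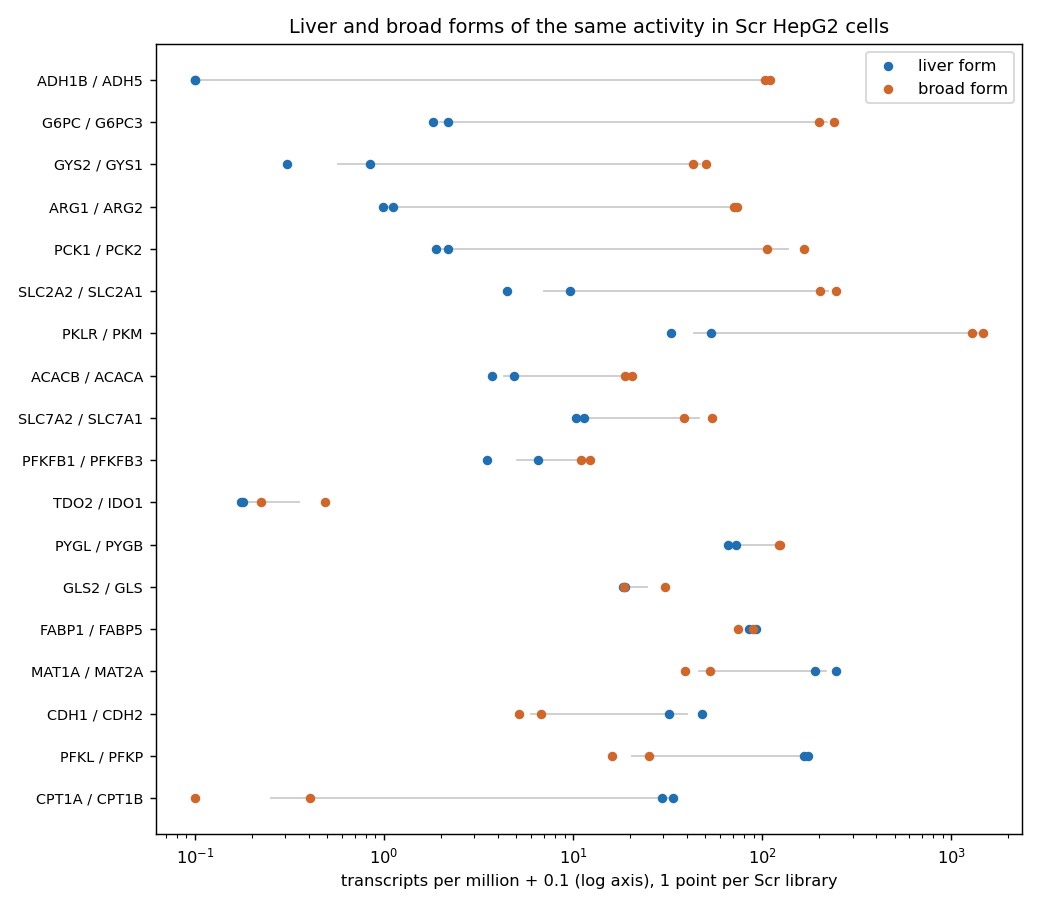
TPM plus 0.1 on a log axis for the liver form (blue) and the broad form (orange) of 18 pairs, 1 point per Scr library, with a grey line between the means. Pairs are ordered by the ratio of the means plus 0.1, from *ADH1B* and *ADH5* (103 and 110 TPM for *ADH5*) at the top to *CPT1A* and *CPT1B* at the bottom. The broad form lies to the right in the upper 12 pairs. The names of the forms are loose for *CPT1B*, a muscle form, and for the cadherins *CDH1* and *CDH2*.

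Neighbouring genes of 1 family often stood apart. On chromosome 4 (GRCh38), *ALB* (73397114 to 73421412) and *AFP* (73431138 to 73456174) read 12797 CPM ± 3863 and 3261 CPM ± 1075 (SD, n = 2), and *AFM* (73481683 to 73504001), the next gene of the same family and strand, read 0.241 CPM ± 0.150. In the alcohol dehydrogenase cluster, *ADH5* was at 144 CPM ± 5.20 and *ADH6* at 54.1 CPM ± 18.8, while *ADH1B* and *ADH1C* had 0 counts. In the serpin cluster of chromosome 14, *SERPINA1*, *SERPINA3*, *SERPINA5* and *SERPINA6* were all over 200 CPM in each library.

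Genes of the fetal liver and of liver tumours were expressed beside the adult program. *GPC3*, a cell-surface proteoglycan used as a liver cancer marker, was at 4047 and 3653 CPM, and *AFP*, the fetal counterpart of albumin, at 2501 and 4021 CPM. The retroviral-like imprinted gene *PEG10* was at 840 and 1603 CPM, the fetal growth factor *IGF2* at 1179 and 479 CPM, and *DLK1*, a marker of fetal hepatoblasts, at 320 and 278 CPM. *IGF2BP1*, an RNA-binding protein of the embryo, was at 387 and 436 CPM and *LIN28B* at 15.4 and 36.2 CPM. *H19*, the imprinted neighbour of *IGF2*, had 52 counts in replicate 1 and 0 in replicate 2 (3.49 and 0 CPM). Of the repressors that shut *AFP* after birth, *ZHX2* was at 56.3 and 46.7 CPM and *ZBTB20* at 3.02 and 3.12 CPM. *TERT*, the telomerase subunit silent in adult hepatocytes, was at 13.4 and 7.57 CPM. *SALL4*, another fetal liver factor, had 3 and 1 counts. In all 26 of 31 genes of this list (83.9%) reached 1 CPM, against 63.2% of all genes and 72.2% of protein-coding genes.

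Targets of beta-catenin, the effector of WNT signalling, were among the higher regulators. The feedback inhibitors *NKD1*, *NOTUM* and *AXIN2* were at 681 and 526, 531 and 398, and 163 and 144 CPM, and *CTNNB1* itself at 384 and 350 CPM. The stem cell receptor *LGR5* was at 28.5 and 33.0 CPM. Genes known from the pericentral zone of the liver lobule were at mixed levels, with the transcription factor *TBX3* at 227 and 172 CPM, the glutamine synthetase *GLUL* at 8.73 and 10.3 CPM and *CYP2E1* at 0 counts. Of the 15 genes of the list, 13 reached 1 CPM. *LEF1*, a partner of beta-catenin on DNA, also had 0 counts in both libraries.

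Proliferation genes were expressed in 25 of 26 cases, with a median of 141 CPM. *PCNA*, the replication clamp, was at 321 and 407 CPM, *CCND1* at 276 and 355 CPM, *CCNB1* at 126 and 145 CPM and *MKI67* at 48.1 and 93.4 CPM. The cell cycle inhibitor *CDKN1A* was at 371 and 331 CPM and the stress cytokine *GDF15* at 962 and 374 CPM. *CDKN2A*, an inhibitor that many tumours delete, was at 16.6 and 14.6 CPM.

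Surface proteins followed the hepatocyte in part. The asialoglycoprotein receptor subunits *ASGR1* and *ASGR2*, which mark the hepatocyte surface, were at 677 and 679 CPM and at 591 and 589 CPM, with the replicates almost equal. The keratins of simple epithelia *KRT8* and *KRT18* were at 3060 and 3492 CPM and at 1568 and 1603 CPM. *GJB1*, the gap junction protein of hepatocytes, was at 156 and 208 CPM. *GHR*, the growth hormone receptor, had 0 counts in both libraries, and its target *IGF1*, the main circulating growth factor made by liver, had 1 and 0 counts. *CD81*, an entry factor of hepatitis C virus that was named after its value was seen, was at 2.62 and 2.01 CPM.

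Of 23 genes of innate sensing and the interferon response, 18 (78.3%) reached 1 CPM, with a median of 13.8 CPM. The share was 63.2% of all genes and 72.2% of protein-coding genes. The nucleic acid sensor *TLR3* had 0 and 1 counts and the cytosolic DNA sensor *CGAS* 1 and 0, its partner STING (*TMEM173*) was at 3.02 and 2.78 CPM, and the RNA sensor *DDX58* (RIG-I) at 5.24 and 3.96 CPM. The adaptor *MAVS* was at 257 and 255 CPM, and the interleukin-6 receptor *IL6R*, which drives the acute-phase response, at 59.0 and 68.6 CPM.

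Markers of other cell types were compiled as 8 lists, which had from 1 of 4 (kidney) to 7 of 11 (bile duct) members at or above 1 CPM. The share was 63.2% of all genes and 72.2% of protein-coding genes. Chosen markers without a row are left out of the list shares. These were 4 of 8 for kidney, 1 of 12 for bile duct, 7 of 16 for stellate cells and fibroblasts, and 6 of 16 for gut and pancreas. The leukocyte marker *PTPRC* had 1 and 2 counts, the collagen gene *COL1A1* 2 and 0, and the endothelial cadherin *CDH5* 11 and 1. Other endothelial markers were higher, with *ENG* at 44.6 and 53.6, *ESAM* at 46.5 and 31.8 and *LYVE1* at 9.40 and 13.1 CPM. Of the 10 endothelial markers in the table, 4 reached 1 CPM. The bile duct keratin *KRT7* was at 0.269 and 0.417 CPM, whereas *KRT19*, shared by bile duct cells and hepatic progenitors, was at 200 and 224 CPM, and *SPP1* at 457 and 191 CPM. *VIM*, the filament of mesenchymal cells, was at 1.34 and 0.625 CPM. Members at high levels were *LYZ* at 364 and 420 CPM, *CD74* at 293 and 265 CPM, *CD68* at 156 and 156 CPM, *ACTA2* at 192 and 157 CPM and the brush border gene *VIL1* at 410 and 472 CPM. Also high were the bile duct marker *ANXA4* at 237 and 377 CPM and the neuronal marker *ENO2* at 110 and 79.4 CPM. *PGC*, which encodes a stomach pepsinogen, was at 52.2 and 50.1 CPM, and the intestinal factor *CDX2* at 5.24 and 5.48 CPM. In such bulk libraries a few cells with a high level and many cells with a low level cannot be told apart, and their part in these values was not tested.

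The 2 Scr libraries differed by more than counting error for many genes. With 1 library against 1 there is no replicated test, and each ratio is given with its exact conditional binomial interval (95%, counting error only). Over the 9736 genes with at least 200 counts over the pair, the median absolute log2 ratio was 0.228, a fold of 1.17. The same measure was 0.945 between the miR-23a KO libraries and 0.0692 between the miR-27a KO libraries. Of 12679 genes with at least 40 counts over the pair, 881 (6.95%) were over 2-fold apart, 340 (2.68%) higher in replicate 1 and 541 (4.27%) higher in replicate 2.

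Of the 10 genes named as furthest apart towards replicate 1, 3 are known as acute-phase or cytokine-induced genes. *SERPINA3*, the acute-phase protein alpha-1-antichymotrypsin, had 18859 counts against 3506, a log2 ratio of 2.38 (2.33 to 2.43). *LCN2*, an iron-scavenging protein of the acute phase, had 673 counts against 70 (log2 ratio 3.22, 2.86 to 3.59), and *UBD*, a ubiquitin-like protein induced by cytokines, had 230 against 46 (2.27, 1.81 to 2.76). *LOC105371094* had 366 counts in replicate 1 and 0 in replicate 2, at least 118-fold higher against the limit of 3 counts in that library. The other genes of the first 10 were *PNCK*, *C6orf223*, *PTP4A3*, *INHA*, *TNS1* and *LSP1*, at 4.84- to 9.30-fold together with *LCN2*, *SERPINA3* and *UBD*. The same direction was seen in listed genes: *IGF2* (1179 against 479 CPM), *GDF15* (962 against 374), *MT2A*, which encodes a metallothionein (407 against 115), *HAMP*, the iron hormone hepcidin (119 against 53.9), and *IGFBP1* (230 against 86.1). *HP* and *C3*, also acute-phase products, read 37.6 against 36.2 and 4570 against 2837 CPM. The list of plasma carriers and acute-phase proteins leaned the other way, with 10 of 26 compared genes higher in replicate 1, 16 higher in replicate 2 and a median log2 ratio of -0.18.

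Genes higher in replicate 2 included *CKAP2*, a spindle protein (26 against 192 counts, log2 ratio -2.93, -3.58 to -2.34), *DKK4*, a WNT inhibitor (65 against 419), the actin-binding *TAGLN* (161 against 881), the tight junction gene *CLDN2* (75 against 338) and *UGT1A1* (83 against 341). The remaining ones were *LOC100129931*, *HTT-AS*, *PARN*, *CTBP1-AS* and *MREG*, with *LOC100129931* at 9.82-fold as the furthest apart. Among the liver lists, *TTR* (61.2 against 196 CPM), *SULT2A1* (60.8 against 150 CPM) and *APOB* (1207 against 2746 CPM) had this direction. Conjugation enzymes as a list had a median log2 ratio of -0.51, with 3 of 24 compared genes higher in replicate 1, and bile acid genes -0.47, with 2 of 23, while complement had 0.07, with 9 of 15. Over all genes with 200 counts the median was -0.070. The counts over 2-fold apart in these lists were 5 of 24, 3 of 23 and 0 of 15, against 6.95% of all genes compared.

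**Figure D3:**
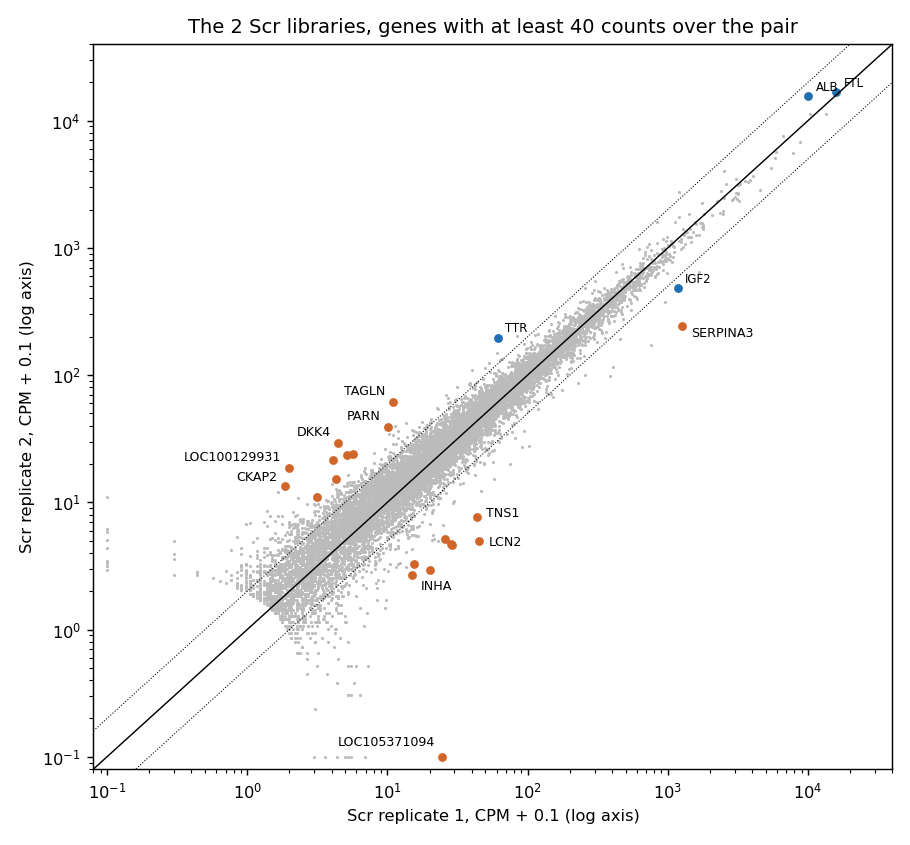
CPM plus 0.1 in Scr replicate 1 (x axis) and Scr replicate 2 (y axis), both on log axes, for 12679 genes with at least 40 counts over the pair. The solid line is equality and the dotted lines are 2-fold. Orange points are the 10 genes named in each direction, not all with a label, and blue points are *FTL*, *ALB*, *IGF2* and *TTR*. *SERPINA3* lies far below the line at 1266 and 243 CPM.

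The ratio between the libraries moved with base composition. Over 9555 genes with at least 200 counts and an annotated transcript, the log2 ratio of replicate 1 over replicate 2 correlated with GC content at Pearson's r of 0.456 and Spearman's rho of 0.482, and with log2 transcript length at -0.192 and -0.201. These are across genes of the same 2 libraries, and genes are not independent replicates. Transcripts under 40% GC had a median log2 ratio of -0.55, those from 50 to 55% of 0.0036 and those of 60% and over of 0.081. The median GC content was 58.9% for genes over 2-fold higher in replicate 1 and 40.6% for those higher in replicate 2. With that trend taken out by loess on GC content and transcript length, 529 of 12161 genes were over 2-fold apart, 322 higher in replicate 1 and 207 in replicate 2, against 811 of the same genes before. The direction of the majority thus changed with this correction. *SERPINA3* kept a log2 ratio of 2.36, *LCN2* of 3.13 and *IGF2* of 1.28, while *ALB* went from -0.63 to -0.26 and *AFP* from -0.69 to -0.18. The part of library preparation or of the culture in these ratios was not tested.

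**Figure D4:**
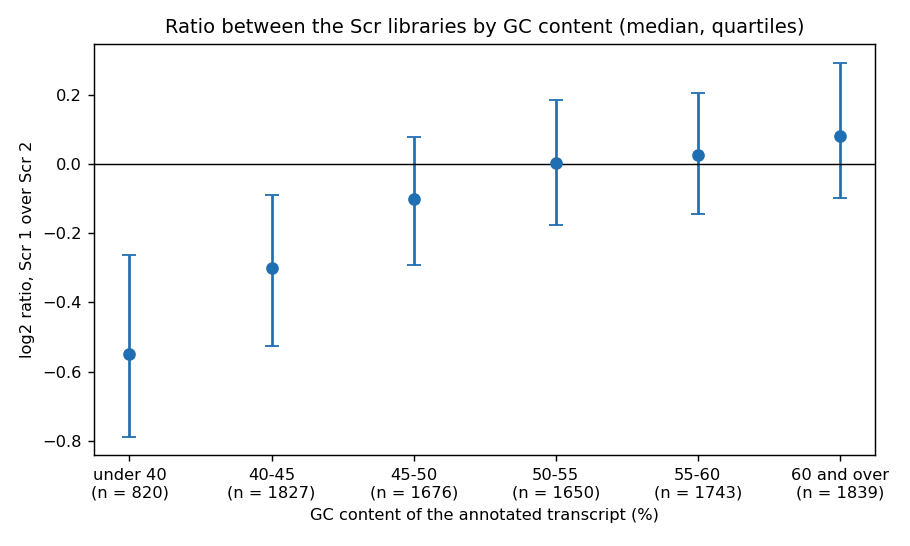
Log2 ratio of Scr replicate 1 over replicate 2 by GC content of the annotated transcript (%), for genes with at least 200 counts over the pair. Points are medians, bars the lower and upper quartiles, and n is the number of genes in a class. The median rises from -0.55 under 40% GC to 0.081 at 60% and over.

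For the reading of these levels as a baseline, the same genes were compared with the KO libraries with the quasi-likelihood test of edgeR and p-values adjusted over all genes tested by the Benjamini-Hochberg method. Both comparisons share the Scr libraries. The SEs and p-values rest on the spread between libraries of a group, which may come from 1 colony. A difference between colonies cannot be told apart from an effect of the KO. Against miR-27a KO, 1418 of 13820 genes (10.3%) passed an adjusted p of 0.05 with a fold over 1.5 and are called here, 931 (6.74%) lower and 487 (3.52%) higher in the KO. The count fell to 64 (3 higher and 61 lower) when all 6 libraries were fitted together, and to 4 at an adjusted p under 0.001, the threshold of the study. At that threshold and the same fold the paper reports far more genes for each KO. For this step it gives a fold change and an adjusted p but names no test. Of the 313 liver-function genes tested, 53 were called (16.9%), 39 lower and 14 higher, with a median log2 change of -0.11 against 0.010 over all genes tested. Cholesterol synthesis had 1 of 21 called, conjugation enzymes 1 of 25, and iron, heme and copper handling 8 of 21. Against miR-23a KO, 0 of 13786 genes (0.0%) were called, with 118 higher and 214 lower at an unadjusted p under 0.05, and DESeq2 called 63. These counts rest on single libraries: without a given Scr library the miR-27a KO count was 2270 or 3716, without a given miR-27a KO library 424 or 334, and leaving out miR-23a KO replicate 1 or 2 brought the miR-23a KO count to 594 or 2630.

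Several genes that were counted in both Scr libraries, some at low levels, had no or few counts in miR-27a KO cells. *PROM1*, a surface marker of progenitor cells, had 234 and 321 counts in Scr and 0 in both miR-27a KO libraries, at least 201-fold higher in Scr against the limit of 3 counts over the KO pair (adjusted p = 0.00504, edgeR). *LYVE1*, a hyaluronan receptor, had 140 and 188 counts against 0 and 0 (at least 119-fold, adjusted p = 0.00669, edgeR), and the oxysterol hydroxylase *CYP39A1* 41 and 52 against 0 and 0 (at least 33.7-fold, adjusted p = 0.0134, edgeR). *DLK1* fell from 320 and 278 CPM to 0.694 and 0.941 CPM (log2 change -8.57, SE 0.207, adjusted p = 0.000522, edgeR). *CYP2B6* fell from 29.1 and 16.5 CPM to 0.0631 and 0.188 CPM (adjusted p = 0.00552, edgeR). In the miR-23a KO libraries these 5 genes had counts in both. No gene at all was called against miR-23a KO, so the lack of a call is no contrast for these 5.

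In the other direction, *PGC* rose from 52.2 and 50.1 CPM to 495 and 472 CPM (log2 change 3.17, SE 0.0975, adjusted p = 0.000987, edgeR), and was at 6.72 and 13.4 CPM in miR-23a KO. *ESRP1*, an epithelial splicing factor, rose from 1.75 and 2.78 to 18.9 and 18.9 CPM (adjusted p = 0.00669, edgeR). *IFNLR1*, the interferon lambda receptor, rose from 7.92 and 7.91 to 30.5 and 35.1 CPM (adjusted p = 0.00552, edgeR). The arachidonate epoxygenase *CYP2J2* rose from 0.470 and 0.347 to 3.91 and 3.64 CPM, and *CP*, the copper carrier ceruloplasmin, from 24.7 and 12.5 to 86.6 and 85.5 CPM (adjusted p = 0.0150 and 0.0212, edgeR). *IFNLR1*, *CYP2J2* and *CP* were no longer called when all 6 libraries were fitted together (adjusted p = 0.0806, 0.261 and 0.543, edgeR), and *CYP2J2* was not called when miR-27a KO replicate 1 or 2 was left out (adjusted p = 0.0743 and 0.0753).

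**Figure D5:**
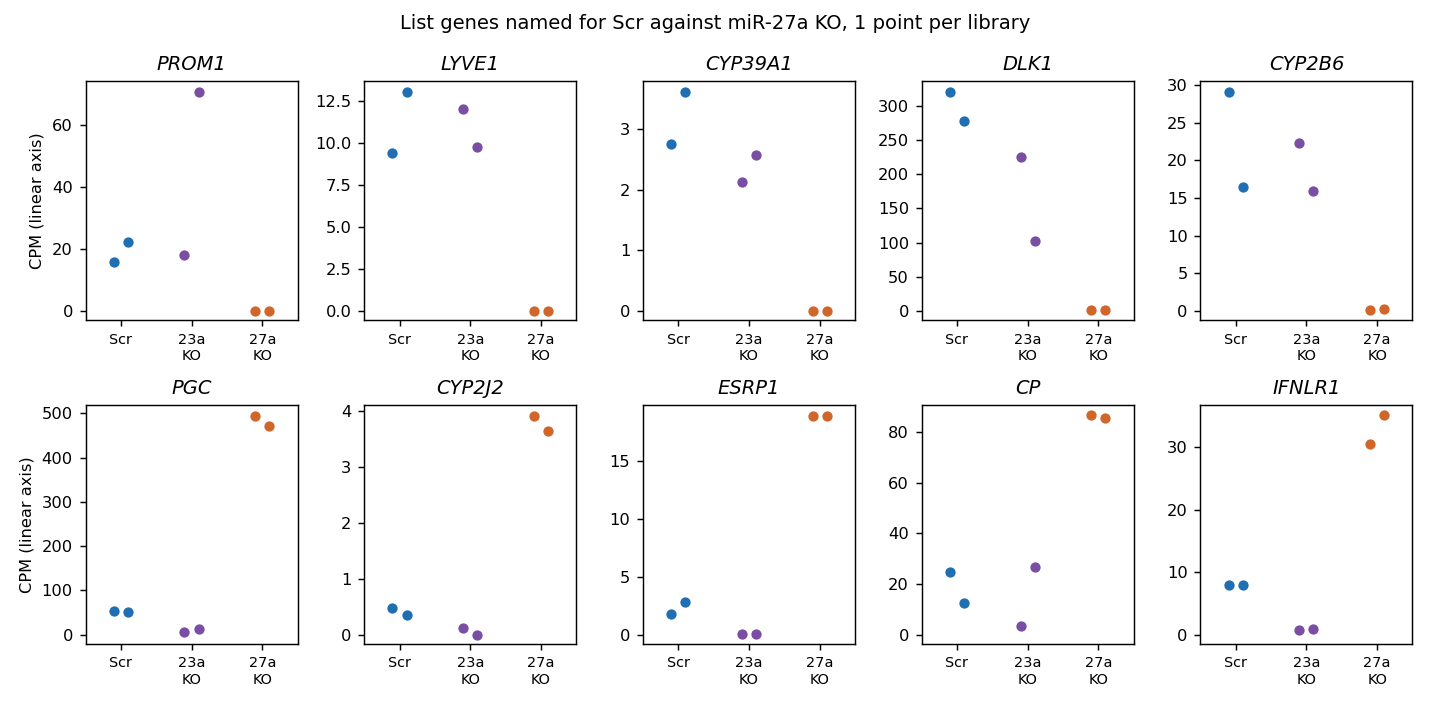
CPM on linear axes, each with its own range, with 1 point per library and 2 libraries per group, for the 10 list genes named in the comparison of Scr with miR-27a KO. The upper row holds the genes lower in miR-27a KO, where *PROM1*, *LYVE1* and *CYP39A1* are at 0 in both libraries, and the lower row those higher, where *PGC* is at 495 and 472 CPM.

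Few of the genes with 0 counts in both Scr libraries were counted well elsewhere. Only 1 of the 1789 reached 1 CPM in both miR-23a KO libraries (*LOC107986837*, 23 and 23 counts), and 2 did so in both miR-27a KO libraries. These were *HOXD9*, a homeobox gene of posterior body patterning, with 34 and 26 counts, and *FAM84B* with 22 and 30 counts. Against the limit of 3 counts over the Scr pair they were at least 13.8-, 18.4- and 16.0-fold higher. The choice of genes at 0 in Scr fixes the direction of these differences.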

How the data were processed

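RNA-seq of 6 HepG2 libraries was used, 2 for each of the 3 groups (Scr and the KO of either miRNA). The authors deposited expected counts per gene, neither depth- nor length-scaled, under column names that say FPKM. The unit was read from the values, whose sums differ between libraries. The labels name HISAT, StringTie, Cufflinks and GATK, and settings and genome build are not given in the sources used here. The study names a stranded kit and the labels another kit. No value column was left unused (0). Counts were rounded and divided by the library total (CPM, with 1 CPM in both Scr libraries as the threshold). TPM used median lengths of the annotated transcripts of GENCODE release 29, available for 17620 genes. Promoters and miRNAs came from RefSeq (GRCh38.p14). KO comparisons used edgeR 4.0.16 (filterByExpr, TMM, glmQLFTest) and DESeq2 1.42.0 in R 4.3.3. In simulated data with 200 genes changed 4-fold, edgeR called 199 for Scr against miR-27a KO (13769 genes tested) and 27 for Scr against miR-23a KO (13792 genes tested). It also called 11 and 1 unchanged genes. DESeq2 called 199 and 90 of the changed and 5 and 19 of the unchanged genes. Genes of low level were left out of the changed set, so their recovery was not tested. Members and lists were chosen with earlier results of these data known. Genes were named by rule: the 10 highest by CPM and by TPM, each list's core genes, its 3 highest and its members at 0, the isozyme pairs, the 10 largest ratios per direction between Scr libraries among genes with at least 200 counts, the 5 largest called changes of list genes per direction, and up to 5 genes at 0 in Scr but seen in a KO. Genes of the lists that had no row are not analysed here. Some genes and pairs named by this rule are not reported here.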

Additional observations from a re-analysis of the deposited data

Results flagged for a closer look

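The 10 list genes named in the comparison of Scr with miR-27a KO were searched for KO groups on opposite sides of Scr. In 4 of them every library of miR-27a KO lay above and every library of miR-23a KO below both Scr libraries. These 4 were named for a rise in miR-27a KO, so that side was fixed by the choice. The fitted log2 ratio of miR-23a KO over miR-27a KO was -5.53 for *PGC*, -5.62 for *CYP2J2*, -7.99 for *ESRP1* and -5.23 for *IFNLR1*. In edgeR's test of this difference the adjusted p was 0.0803, 0.173, 0.0803 and 0.0803, so none passed 0.05. *CYP2J2* had at most 2 counts in a miR-23a KO library. The cause was not tested.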

How the results depend on the processing

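The 12657 genes at or above 1 CPM and the 302 liver-function genes stayed within 1.5 times under all 7 alternatives each (11665 to 13474 and 290 to 310). The share of the 10 most abundant genes was 9.01%, 10.5% per length, and 8.99 to 9.02% by single library. The 881 genes over 2-fold apart became 545 (4.89% of those compared) and 331 (3.40%) with at least 100 and 200 counts, and 529 without the trend with length and GC content. For Scr against miR-23a KO, 0 calls became 63 with DESeq2, 10 without a filter, 69 with the replicate block, 3 in the fit of all 6 libraries, and 4 to 2630 with 1 library left out (594 without miR-23a KO replicate 1, 2630 without replicate 2). For Scr against miR-27a KO, 1418 calls became 4 at an adjusted p under 0.001, 892 without a filter, 64 in the fit of all 6 libraries, and 334 to 3716 with 1 library left out (2270 and 3716 without Scr replicate 1 and 2, 424 and 334 without miR-27a KO replicate 1 and 2); the block gave 1693. With a library left out, the lone sample is assumed to vary like the other group. Replicate numbers mark no shared culture in the labels, and deviations of same-numbered Scr libraries correlated at 0.283 with miR-23a KO and -0.00113 with miR-27a KO over 10112 genes. All 10 named changes kept their direction in 100 alternatives, which include the main fit read at an adjusted p under 0.001. Of these alternatives, 13 no longer passed, in part by that stricter threshold alone. Only *DLK1* and *PGC* passed it in the main fit (adjusted p = 0.000522 and 0.000987, edgeR). An adjusted p over 0.05 was reached only by *CYP2J2*, *CP* and *IFNLR1* (highest adjusted p 0.261, 0.543 and 0.0806, edgeR). The planned limma fit of FPKM values was not run, as the values are counts. The causes were not tested. A count of 0 limits a gene to 0.201 and 0.208 CPM in a single library.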
